A study of Mus musculus with 18 samples.

Results

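Cytosolic heat shock chaperones and their helpers were followed under endoplasmic reticulum (ER) stress with and without the C/EBPβ isoform LIP. The cells were B16 F10.9-4, a mouse melanoma line. The list held 10 genes linked to the heat shock factor HSF1: Hsph1, Dnajb1, Hspb1, Ahsa1, Hspa8, Hsp90aa1, Hsp90ab1, Hspa4, Bag3 and Hsf1. Of these, 8 were found by symbol among the 19938 genes read by probe sets with a single gene symbol; Hsp90ab1 and Hsf1 were not found there and are not analysed here. Where a gene had several such probe sets the brightest was used.

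RNA from 18 cultures was read on 18 arrays in 6 groups of 3, with 1 array of each group from each of 3 independent experiments. The groups were cells given doxycycline alone (0 h of tunicamycin), doxycycline and then tunicamycin for 5 h or for 12 h, tunicamycin alone for 5 h or for 12 h, and vehicle. Doxycycline switched on overexpression of LIP, a truncated C/EBPβ that keeps the DNA-binding domain without most of the transactivation domain, and tunicamycin blocks N-linked glycosylation so that unfolded protein gathers in the ER. Every group used the same cell line, so doxycycline itself and LIP cannot be told apart, and neither can tunicamycin and the hours in culture.

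Heat shock chaperones hold unfolded cytosolic proteins and fold them or hand them on for degradation. HSP70 proteins bind exposed stretches of a client, J-domain proteins bring clients to them and start ATP hydrolysis, HSP110 proteins and BAG proteins exchange the nucleotide, HSP90 finishes selected clients with the help of co-chaperones, and small heat shock proteins keep clients soluble. HSF1, released when cytosolic chaperones are busy, binds heat shock elements in the promoters of many of these genes, while the ER has its own set of chaperones under the unfolded protein response.

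The heat shock element is a row of inverted GAA units, and the upstream windows of the 3 members that changed under doxycycline alone are shown here with every pair of adjoining units in capitals. The sequences are RefSeq's on GRCm38.p6, the 250 bases before the annotated start, 5′ to 3′ in the direction of transcription. The windows lie at chr5:135887669-135887918 on the plus strand for Hspb1, chr5:149636337-149636586 on the minus strand for Hsph1 and chr8:83607925-83608174 on the plus strand for Dnajb1.
Hspb1: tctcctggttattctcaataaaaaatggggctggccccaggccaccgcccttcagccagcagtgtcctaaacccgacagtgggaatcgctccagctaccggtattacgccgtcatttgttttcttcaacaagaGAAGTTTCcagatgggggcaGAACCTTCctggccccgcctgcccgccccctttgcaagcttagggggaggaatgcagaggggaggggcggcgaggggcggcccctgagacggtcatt
Hsph1: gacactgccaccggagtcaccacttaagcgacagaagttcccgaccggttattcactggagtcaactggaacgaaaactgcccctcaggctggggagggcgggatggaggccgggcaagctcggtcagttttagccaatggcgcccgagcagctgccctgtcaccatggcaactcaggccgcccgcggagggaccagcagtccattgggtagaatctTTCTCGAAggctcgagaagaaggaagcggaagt
Dnajb1: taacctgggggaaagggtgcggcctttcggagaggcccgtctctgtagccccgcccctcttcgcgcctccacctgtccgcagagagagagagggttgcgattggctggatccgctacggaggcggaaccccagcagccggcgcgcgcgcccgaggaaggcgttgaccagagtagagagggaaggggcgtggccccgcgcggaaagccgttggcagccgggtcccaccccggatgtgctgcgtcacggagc

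The head-to-head pair GAANNTTC stood 117 and 97 bases before the start in Hspb1, and the tail-to-tail pair TTCNNGAA stood 33 bases before it in Hsph1. The Dnajb1 window held neither pair. Both pairs read the same on the other strand and can overlap each other. Of 32851 promoter windows of the same length in the table, 6.69% held GAANNTTC, 7.17% held TTCNNGAA and 12.8% held either. A 3-unit form, GAANNTTC followed by NN and GAA, searched on both strands, was in 0.466% of all windows and in 0 windows of the members. A C/EBP-like motif, TTGCNNAA on either strand, was in 9.56% of all windows and in 0 windows of the members. The table held windows for 6 of the 10 listed genes, and Ahsa1, Bag3 and Hspa4 had none of these letters. A second annotated start of Hsph1 put the same pair 54 bases before it.

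**Figure D1:**
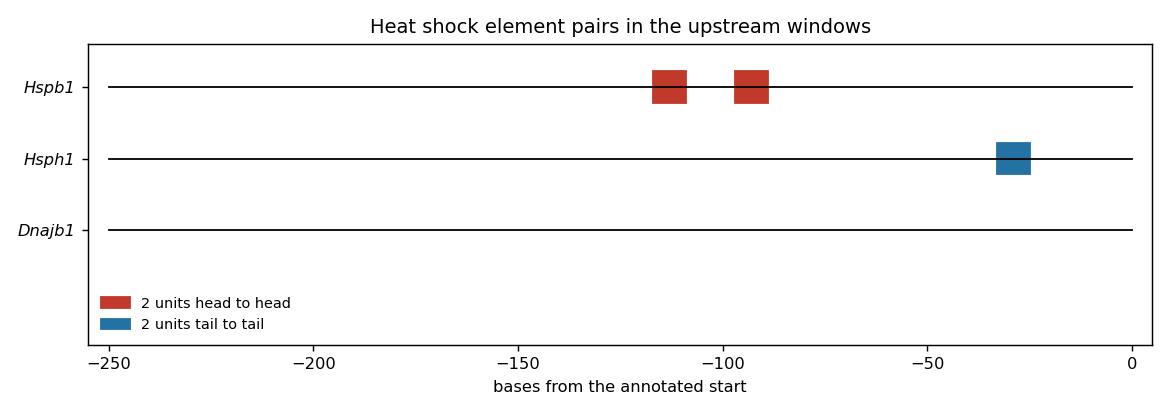
Heat shock element pairs in the 250 bases upstream of the annotated start (x axis, bases from the start) of Hspb1, Hsph1 and Dnajb1, 1 line a gene. Hspb1 has 2 head-to-head pairs at 117 and 97 bases before the start, Hsph1 has 1 tail-to-tail pair at 33, and Dnajb1 has none.

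Levels are the authors' log2 intensities after RMA, and changes are differences of group means on the log2 scale with the standard error (SE) and the adjusted p of limma over all 19938 genes; a gene is said to have risen or fallen where that p is under 0.05, and the number of arrays limits the precision. Cebpb, which reads LIP together with the longer isoforms, averaged 11.18 ± 0.137 with doxycycline and 9.33 ± 0.126 with vehicle (SD, n = 3 each). It stood 1.84 higher with doxycycline without tunicamycin, 1.81 higher at 5 h and 1.22 higher at 12 h. Tunicamycin alone for 12 h raised it by 0.96 (adjusted p = 4.80e-09). The limma interaction of doxycycline and tunicamycin for Cebpb at 12 h was -0.62 (adjusted p = 0.00247). Ddit3, which encodes the ER stress factor CHOP, averaged 11.61 ± 0.0075 after 12 h of tunicamycin and 8.72 ± 0.202 with vehicle (SD, n = 3 each). All 10 melanocyte markers lay above 6.07, the level under which 95% of 1194 olfactory and vomeronasal receptor genes lay, a stand-in for silent genes. Of markers of other cells 4 of 6 fibroblast, 1 of 5 keratinocyte, 2 of 5 leukocyte and 2 of 5 endothelial genes did so. Of the fibroblast list Col1a2 (7.90), Col1a1 (7.79), Col3a1 (6.96) and Pdgfra (6.29) lay above it and Dcn (5.32) and Lum (4.50) below, as means over all arrays, and the highest of the other lists was Cd68 (7.86). The part of other cells in the results was not tested. Each of the 8 measured members stood above 6.07 in every group mean.

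After 12 h of tunicamycin the cytosolic chaperone genes stood lower, with the steepest fall in Hsph1 and the smallest in Hsp90aa1 among the 6 that fell; Hspa4 and Bag3 did not pass. Of the 8 measured members 6 fell and 0 rose relative to vehicle, against 15.8% of all genes lower, 11.9% higher and 27.7% called in either direction. With array medians over all probe sets set equal 3805 genes were lower and 1897 higher, against 3151 lower and 2365 higher as deposited. The members' median change was -0.34, and that of all genes was 0.001. In bulk RNA, fewer cells of a kind and less RNA per cell cannot be told apart.

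In the HSP70 system, Hsph1, an HSP110 nucleotide exchange factor, stood at 10.35, 10.58 and 10.37 after 12 h of tunicamycin, against 11.40, 11.25 and 11.43 with vehicle. The groups did not overlap and the change was -0.92 ± 0.067 (SE, adjusted p = 3.87e-09), which left the gene at 0.527 of its vehicle level on the linear scale. Hspa8, the constitutive HSP70 of the cytosol, read 13.23, 13.18 and 13.11 with tunicamycin, against 13.50, 13.46 and 13.45 with vehicle. All 3 tunicamycin arrays lay below all vehicle arrays, a change of -0.29 ± 0.044 (SE, adjusted p = 3.74e-05). Dnajb1, the J-domain protein that serves HSP70 in the heat shock response, had 8.54, 8.63 and 8.51 with tunicamycin, against 9.28, 9.18 and 9.19 with vehicle. It too was lower on every tunicamycin array, by -0.66 ± 0.079 (SE, adjusted p = 2.59e-06).

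Hspa4, another HSP110 family member, ranged between 12.08 and 12.13 at 12 h of tunicamycin and between 12.16 and 12.23 with vehicle. Its groups did not overlap, yet the change of -0.08 did not pass (adjusted p = 0.248, 95% interval -0.18 to 0.02). That interval excludes a fall of the size seen in Hsph1, Dnajb1 or Hspa8. Bag3, a BAG-domain partner of HSP70 that links it to small heat shock proteins and to autophagy, averaged 9.92 ± 0.061 with tunicamycin and 9.91 ± 0.074 with vehicle (SD, n = 3 each). The difference was 0.001, with a 95% interval of -0.13 to 0.13 and an adjusted p of 0.995.

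In the HSP90 system, Hsp90aa1, the inducible cytosolic HSP90, read 12.86, 12.83 and 12.81 after 12 h of tunicamycin, against 13.03, 13.00 and 13.02 with vehicle. The fall was small, -0.19 ± 0.042 (SE, adjusted p = 0.00203), and was no longer past the threshold without experiment 3 (adjusted p = 0.102). Ahsa1, which activates the HSP90 ATPase, had 10.99, 11.01 and 10.86 with tunicamycin, against 11.45, 11.20 and 11.39 with vehicle. Its groups did not overlap either, and it fell by 0.39 ± 0.070 on the log2 scale (SE, adjusted p = 0.000219). Both genes were lower in 3 of 3 experiments.

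Hspb1, a small heat shock protein that holds clients and steadies actin filaments, gave 7.37, 7.42 and 7.45 after 12 h of tunicamycin, against 7.74, 7.97 and 7.91 with vehicle. All tunicamycin arrays were below all vehicle arrays, a change of -0.46 ± 0.074 (SE, adjusted p = 7.21e-05). In all, the tunicamycin arrays lay below the vehicle arrays for 7 of the 8 measured members, which 22% of all genes also did, and above them for 0, against 17.1% of all genes.

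**Figure D2:**
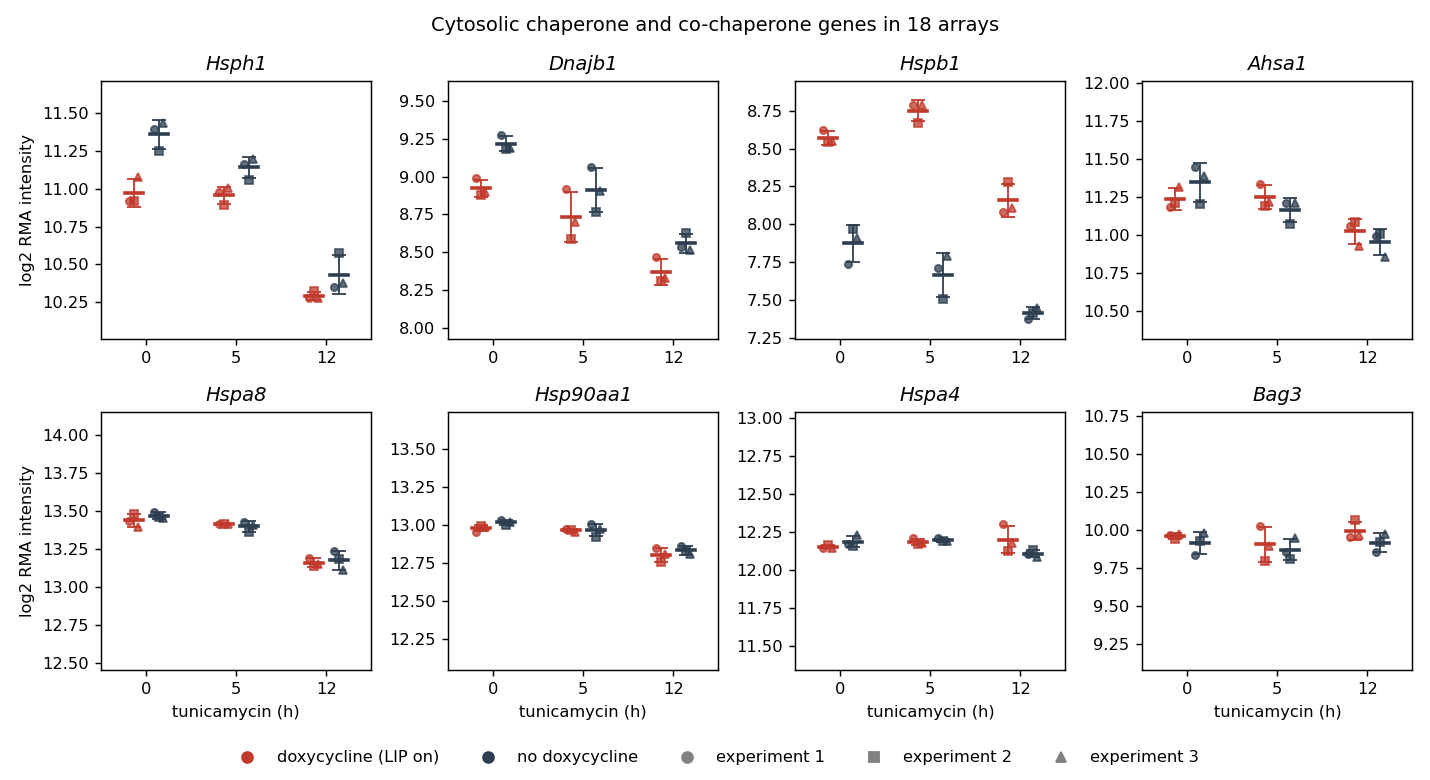
Log2 RMA intensity (y axis, each panel spanning the same width in log2 units) of the 8 measured members by hours of tunicamycin (x axis), with doxycycline in red on the left and without it in dark blue on the right; points are single arrays shaped by experiment, bars the mean and SD of 3 arrays. Hspb1 is higher with doxycycline at every time, Hsph1 and Dnajb1 are lowest at 12 h, and Hspa4 and Bag3 stay within a narrow range.

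At 5 h of tunicamycin Dnajb1 and Hsph1 stood lower than with vehicle, by smaller amounts than at 12 h. Dnajb1 stood at 9.06, 8.77 and 8.91 at 5 h, against 9.28, 9.18 and 9.19 with vehicle, a change of -0.31 ± 0.079 (SE, adjusted p = 0.0200). Hsph1 read 11.16, 11.06 and 11.20, against 11.40, 11.25 and 11.43 with vehicle, a change of -0.22 ± 0.067 (SE, adjusted p = 0.0495). Both genes were lower in 3 of 3 experiments with no overlap between groups. In all, 3 members lay below vehicle without overlap, as 14.5% of all genes did, and 0 above, against 13.4% of all genes. The count was 2 lower and 0 higher, against 4.94% of all genes lower, 4.08% higher and 9.02% called in all. With array medians set equal 1578 genes were lower and 495 higher. Medians over all probe sets set equal gave 1006 lower and 651 higher, and quantile normalization repeated gave 920 lower and 987 higher.

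These calls at 5 h were near the threshold. With the experiment as a block in the paired fit Hsph1 did not pass (adjusted p = 0.0549) and 1 member was called. Fitted on the compared groups alone, neither Dnajb1 (adjusted p = 0.0586) nor Hsph1 (adjusted p = 0.102) passed, and Hsph1 also lost its call without any 1 of 5 arrays, vehicle 1 or 3 or tunicamycin 5 h 1, 2 or 3. Dnajb1 lost it without vehicle 1 or 3 or without tunicamycin 5 h 2 or 3. Hspb1 (-0.21, adjusted p = 0.0956) passed with array medians set equal (-0.25, adjusted p = 0.0361) and without vehicle 1 (-0.27, adjusted p = 0.0459). Ahsa1 (-0.18, adjusted p = 0.121), Hspa8 (-0.07, adjusted p = 0.372), Hsp90aa1 (-0.05, adjusted p = 0.517), Bag3 (-0.04, adjusted p = 0.713) and Hspa4 (0.01, adjusted p = 0.916) did not pass. Ahsa1 did pass without vehicle 2 (-0.26, adjusted p = 0.0414).

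Between 5 and 12 h of tunicamycin 6 of the 8 measured members fell. Hsph1 changed by -0.71 ± 0.067 (SE, adjusted p = 1.62e-07) between these times, Dnajb1 by -0.35 ± 0.079 (SE, adjusted p = 0.00223) and Hspa8 by -0.22 ± 0.044 (SE, adjusted p = 0.000780). Hspb1 (-0.25, adjusted p = 0.0151), Ahsa1 (-0.21, adjusted p = 0.0341) and Hsp90aa1 (-0.14, adjusted p = 0.0225) also fell. That made 6 lower and 0 higher of 8, against 13.6% of all genes lower, 11.4% higher and 25% called in all. With array medians set equal 1868 genes were lower and 2606 higher, but with medians over all probe sets set equal 3212 were lower and 1921 higher. The 12 h arrays lay below the 5 h arrays for 7 members, as for 19.1% of all genes, and above them for 0, against 14.9%. The calls of Hspb1, Ahsa1 and Hsp90aa1 were lost in a fit of the compared groups alone, which left 3 members called, and 3 were left without the tunicamycin 5 h array of experiment 1 or of experiment 3. Without experiment 1 the count was 3, and without experiment 3 it was 1, Hsph1. With array medians set equal, Ahsa1 (adjusted p = 0.132) and Hsp90aa1 (adjusted p = 0.229) lost their calls. Hspa4, at -0.09 (adjusted p = 0.182), passed with quantile normalization repeated (-0.13, adjusted p = 0.0299).

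Doxycycline alone moved these genes in opposite directions: the small heat shock gene Hspb1 rose while Hsph1 and Dnajb1 fell. Hspb1 read 8.62, 8.54 and 8.55 with doxycycline, against 7.74, 7.97 and 7.91 with vehicle, a rise of 0.70 ± 0.074 (SE, adjusted p = 6.14e-06) or 1.62-fold. Each doxycycline array was above every vehicle array, as for 17.7% of all genes. Hsph1 stood at 10.92, 10.92 and 11.08 with doxycycline, against 11.40, 11.25 and 11.43 with vehicle, and fell by 0.39 ± 0.067 on the log2 scale (SE, adjusted p = 0.000830). Dnajb1 had 8.99, 8.88 and 8.90 with doxycycline, against 9.28, 9.18 and 9.19 with vehicle, a change of -0.30 ± 0.079 (SE, adjusted p = 0.0200). For both the groups did not overlap. In all, 3 members lay below vehicle without overlap, as 16.5% of all genes did, and 1 above.

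The comparisons of doxycycline alone and of tunicamycin alone share the vehicle arrays. Of the 8 measured members 1 rose and 2 fell under doxycycline alone, against 4.89% of all genes higher and 5.82% lower (10.7% in all). With array medians set equal 587 genes were higher and 1761 lower, but with medians over all probe sets set equal 1043 were higher and 873 lower. Hsph1 lost its call without experiment 1 (adjusted p = 0.0745). Dnajb1 lost it without experiment 2 (0.0519) or 3 (0.233), and without the array of vehicle 1 (0.0912), doxycycline 2 (0.0803) or doxycycline 3 (0.0697). Hspb1 kept its call in every one of these fits. Ahsa1 (-0.11, adjusted p = 0.389), Hspa8 (-0.03, adjusted p = 0.746), Hsp90aa1 (-0.04, adjusted p = 0.657), Hspa4 (-0.03, adjusted p = 0.726) and Bag3 (0.05, adjusted p = 0.725) did not pass, and the 95% interval for Hspa8 was -0.12 to 0.06.

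The higher Hspb1 level with doxycycline was also measured during tunicamycin. At 5 h the gene read 8.79, 8.67 and 8.79 with doxycycline and tunicamycin, against 7.71, 7.51 and 7.79 with tunicamycin alone. The rise was 1.08 ± 0.074 (SE, adjusted p = 1.45e-08). At 12 h it read 8.08, 8.28 and 8.11 with both agents, against 7.37, 7.42 and 7.45 with tunicamycin alone, a rise of 0.74 ± 0.074 (SE, adjusted p = 8.94e-07). The lowest array with both agents at 12 h was thus above the highest vehicle array.

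Hspb1 was the 1 member called for doxycycline at 5 h and at 12 h, where 6.76% and 6.95% of all genes rose and 5.21% and 7.77% fell (12% and 14.7% in all). With array medians over all probe sets set equal, 1542 genes rose and 726 fell at 5 h, and 1575 rose and 1162 fell at 12 h. Hsph1 was at -0.18 (adjusted p = 0.0937) at 5 h and at -0.14 (adjusted p = 0.208) at 12 h, lower in 3 of 3 experiments each time. Hsph1 passed at 5 h with array weights (-0.23, adjusted p = 0.0112) and under robust estimation with a variance trend (adjusted p = 0.0400). Dnajb1 was at -0.18 (adjusted p = 0.186) at 5 h and at -0.19 (adjusted p = 0.141) at 12 h, and passed at 5 h in the weighted fit (adjusted p = 0.0345). It also passed when the experiment 1 array of doxycycline with tunicamycin 5 h was left out (adjusted p = 0.0302). The other 5 measured members lay between -0.03 and 0.09 in these 2 comparisons, and none of the 5 passed.

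**Figure D3:**
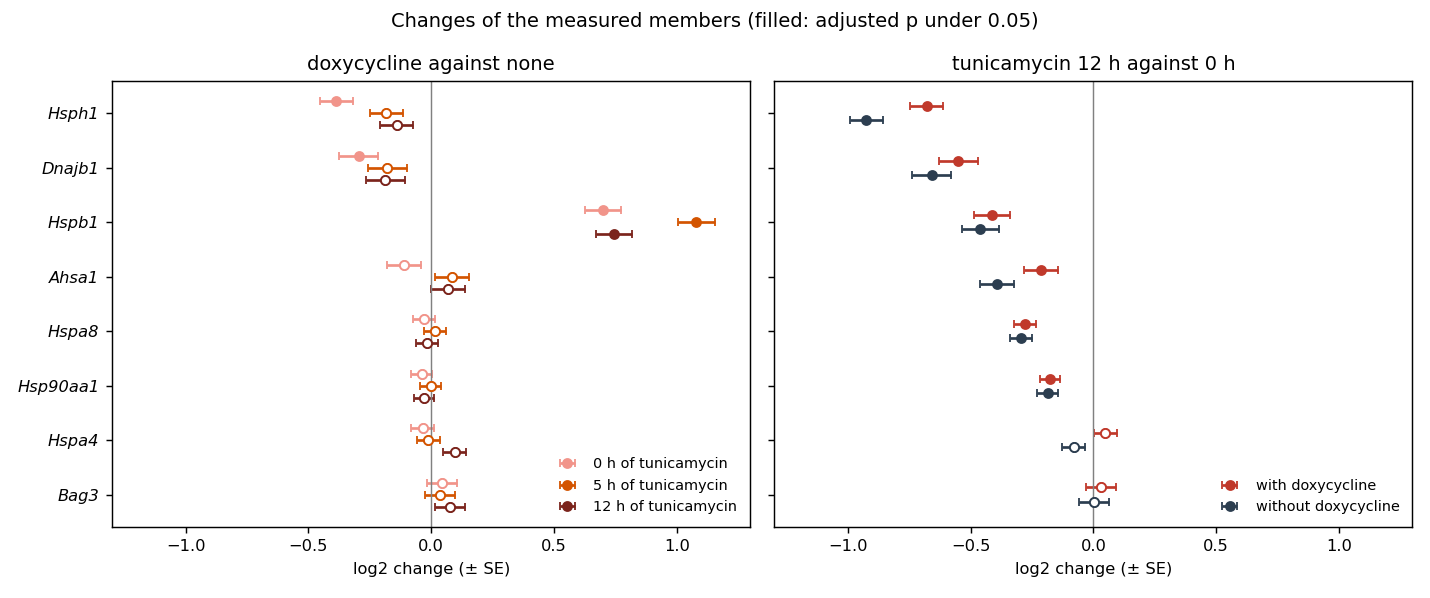
Log2 change with its SE (x axis) of each measured member (rows) for doxycycline against none at 0, 5 and 12 h of tunicamycin (left), and for 12 h of tunicamycin against 0 h with doxycycline (red, upper) and without it (dark blue, lower) on the right; filled points have an adjusted p under 0.05. Hspb1 stands at 0.70, 1.08 and 0.74 on the left, and the 6 filled genes on the right lie below 0 in both settings.

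In cells with LIP switched on, members were lower too after 12 h of tunicamycin. Relative to doxycycline alone, 6 of 8 fell and 0 rose, against 16.6% of all genes lower, 13.4% higher and 29.9% called in all. With array medians set equal 2680 genes were lower and 2957 higher, against 3304 lower and 2667 higher as deposited. With medians over all probe sets set equal 3904 were lower and 2249 higher. The arrays did not overlap, downward, for 6 members and for 23.6% of all genes. Hsph1 read 10.28, 10.32 and 10.27 with both agents, against 10.92, 10.92 and 11.08 with doxycycline alone, a change of -0.68 ± 0.067 (SE, adjusted p = 1.90e-07). Dnajb1 had 8.47, 8.31 and 8.33, against 8.99, 8.88 and 8.90 with doxycycline alone, a change of -0.55 ± 0.079 (SE, adjusted p = 1.92e-05). In both genes the 2 groups lay apart on every array.

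Hspb1 fell by 0.41 ± 0.074 on the log2 scale (SE, adjusted p = 0.000195) in this setting. Hspa8 (-0.28, adjusted p = 5.85e-05), Ahsa1 (-0.21, adjusted p = 0.0265) and Hsp90aa1 (-0.18, adjusted p = 0.00288) also fell. Ahsa1 lost its call with array medians set equal (adjusted p = 0.0944), without experiment 1 or 3, and without the experiment 3 array of either group. Hsp90aa1 lost it without experiment 2 or 3. Hspa4 (0.05, adjusted p = 0.526) and Bag3 (0.03, adjusted p = 0.786) did not pass.

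At 5 h under doxycycline no measured member passed against doxycycline alone, where 5.56% of all genes fell and 6.54% rose (12.1% in all). By limma 2 of the 8, Hspb1 and Dnajb1, had an unadjusted p under 0.05, Hspb1 upward (0.18, adjusted p = 0.152) and Dnajb1 downward (-0.19, adjusted p = 0.156). How many of all genes had such an unadjusted p was not counted. Dnajb1 passed with quantile normalization repeated (adjusted p = 0.0486) and without the experiment 1 array of doxycycline with tunicamycin 5 h (adjusted p = 0.0264). Hsph1 stood at -0.01 (adjusted p = 0.958, 95% interval -0.16 to 0.13). Between 5 and 12 h under doxycycline, 6 of 8 fell and 0 rose, against 15.4% of all genes lower, 10.9% higher and 26.3% called in all. With array medians set equal 2403 genes were lower and 2453 higher, but with medians over all probe sets set equal 3502 were lower and 1819 higher. All 6 lay below without overlap, as 20.7% of all genes did. Hsph1 (-0.66) and Hspb1 (-0.59) changed most among the 6, and without experiment 3 the count was 3. Ahsa1 and Hsp90aa1 lost their calls with array medians set equal (adjusted p = 0.0775 and 0.0819).

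The difference between the tunicamycin responses with and without doxycycline passed for none of the 8 measured members. In the limma interaction term, 0 were called at 5 h, where 0.0301% of all genes were called, and 0 at 12 h, where 1.84% were (0.993% upward). At 12 h 198 genes had a positive and 169 a negative interaction, and 230 and 87 with array medians set equal. Of the members, 2 at 5 h and 1 at 12 h had an unadjusted p under 0.05. The share of all genes under that unadjusted p was not counted, so these counts have no background beside them. At 5 h Hspb1 had the largest interaction of the 8, 0.38 ± 0.104 (SE, adjusted p = 0.307). It was lower with tunicamycin in 3 of 3 experiments without doxycycline (-0.03, -0.46 and -0.12) and higher in 3 of 3 with it (0.16, 0.13 and 0.24). At 12 h the interaction was 0.25 ± 0.095 for Hsph1 (SE, adjusted p = 0.262, 95% interval 0.05 to 0.45) and 0.05 for Hspb1 (adjusted p = 0.914, 95% interval -0.17 to 0.27). Hsph1 was therefore 0.92 lower without doxycycline and 0.68 lower with it, a difference that did not pass.

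Hspb1, Hspa8 and Hsp90aa1 were each read by more than 1 single-symbol probe set, and these moved alike. The 2 probe sets of Hspb1 rose by 0.70 and 0.73 under doxycycline alone and by 1.08 and 1.12 at 5 h of tunicamycin. The 3 probe sets of Hspa8 changed by -0.31 to -0.25 at 12 h of tunicamycin against vehicle, and the 3 of Hsp90aa1 by -0.22 to -0.19; all 6 fell. The probe table lists shared transcript accessions for the probe sets of each gene, so they are not independent readings, and signal from near-identical copies of these genes was not tested.

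Over the 18 arrays the genes whose levels ran most like that of Hsph1, by Pearson r, were the phosphatidate phosphatase Lpin2 and the O-mannose kinase Pomk (r = 0.98 each), followed by the phosphatase Ppm1g, the lamin Lmnb1 and the proteasome subunit Psma7 (r = 0.98 each). This is a description over arrays that share 6 treatment groups.

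At 12 h of tunicamycin each further cytosolic list held genes that fell, some beside genes that rose, and the mitochondrial and ER lists held rises without falls. Over all genes 15.8% were lower, 11.9% higher and 27.7% called in all, which is the background for each of these counts. Of 16 measured HSP90 co-chaperones 8 fell and 0 rose relative to vehicle, with a median of -0.17, among them the immunophilins Fkbp5 (-0.59) and Fkbp4 (-0.39), Tomm34 (-0.48) and the kinase-client adaptor Cdc37 (-0.28). Of 7 other genes listed with cytosolic HSP70 and HSP110, not all of them of these families, 4 fell and 1 rose, with a median of -0.15. Hspa2 (-0.62), Hspa4l (-0.44) and Hspa14 (-0.17) fell, and Hspbap1 (0.31), which is neither an HSP70 nor an HSP110 gene, rose. Of 14 genes of the chaperonin TRiC and prefoldin 4 fell and 0 rose, with a median of -0.09; the falls were small, such as Tcp1 (-0.18) and Pfdn1 (-0.20).

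Against the same 15.8% of all genes lower and 11.9% higher, 5 of 11 J-domain genes rose and 3 fell with a median of 0.14; Dnajb2 (0.38) and Dnajc21 (0.34) rose and Dnaja1 (-0.30), a partner of cytosolic HSP70, fell. Among 9 genes listed with the BAG proteins and degradation links, not all of them of these kinds, 2 rose and 4 fell with a median of -0.05. These included Bag2 (-0.54) and St13 (-0.37) downward and the autophagy receptor Sqstm1 (0.48) upward. In the HSF family and its regulators 2 of 7 rose and 2 fell with a median of 0.10. Hsf5 (0.29, adjusted p = 0.00961) and Sirt1 (0.27) rose. Hsf2, a second heat shock factor, fell by 0.26 (adjusted p = 0.00393), and Hdac6 (-0.25) fell too. Of 9 other genes listed with the small heat shock genes 3 fell and 1 rose, with a median of -0.02. The falls were in Hspb2 (-0.30), Hspb6 (-0.28) and Cryab (-0.16). The rise was in Hspb11 (0.32), a gene listed by its symbol, whose groups overlapped.

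Mitochondrial and ER chaperones that passed were higher at 12 h of tunicamycin. Of 10 mitochondrial chaperones and proteases 5 rose and 0 fell with a median of 0.13, against 11.9% of all genes higher, led by the protease Lonp1 (1.03), the J-domain protein Dnaja3 (0.91) and the mitochondrial HSP70 Hspa9 (0.52). All 10 ER counterparts rose, with a median of 0.72. These included the ER J-domain proteins Dnajb9 (2.24) and Dnajc3 (1.21), the HSP110-like Hyou1 (1.41) and Sdf2l1 (1.33); Hspa5, the ER HSP70 known as BiP, rose by 0.69. The median of all 19938 genes in this comparison was 0.001.

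**Figure D4:**
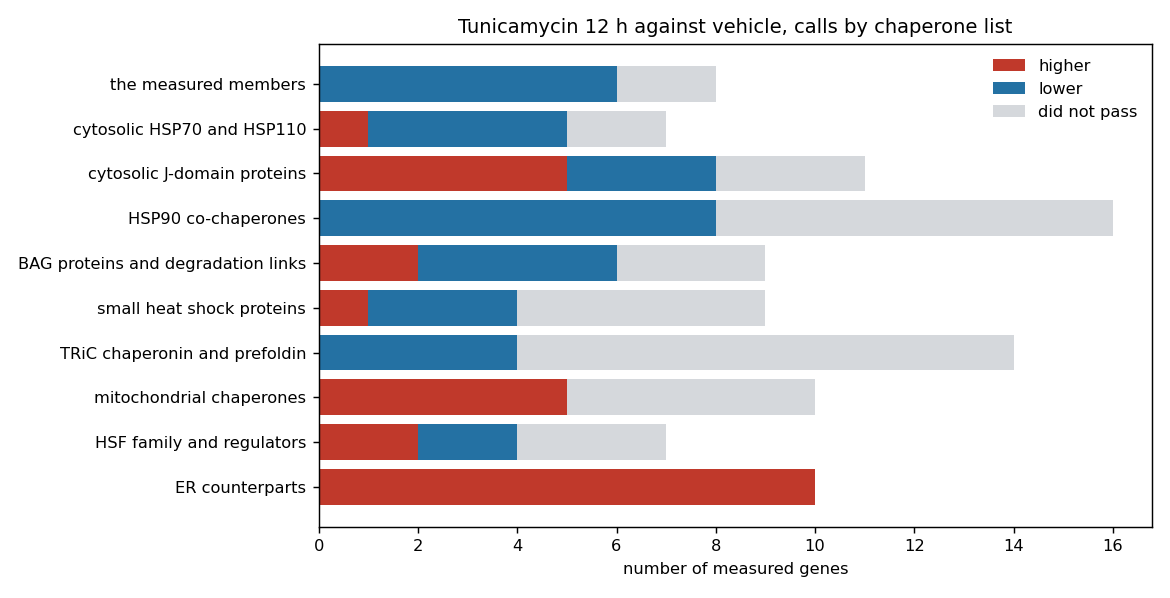
Number of measured genes (x axis) called higher (red), lower (blue) or not past the threshold (grey) at 12 h of tunicamycin against vehicle in the members and 9 further chaperone lists (rows). The members, the HSP90 co-chaperones and the TRiC and prefoldin list show falls without rises, and the mitochondrial and ER lists show rises without falls.

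Under doxycycline alone the other chaperone lists held both rises and falls, where 4.89% of all genes were higher, 5.82% lower and 10.7% called in all. Of the 9 other genes listed with the small heat shock genes 2 rose and 0 fell with a median of 0.07: Hspb6 by 0.50 ± 0.068 (SE, adjusted p = 8.54e-05) and Hspb2 by 0.26 ± 0.062 (SE, adjusted p = 0.00830). At 12 h of tunicamycin, doxycycline went with rises in Hspb6 (0.69), Hspb2 (0.51) and Hspb11 (0.32, with overlapping groups) and no fall in this list. In that comparison 6.95% of all genes were higher, 7.77% lower and 14.7% called in all. Of the 7 genes listed with cytosolic HSP70 and HSP110, Hspa2 (0.30) and Hspa1l (0.20) rose under doxycycline alone. Of 11 J-domain genes Dnajb4 (0.26) and Dnajb5 (0.16) rose and Dnajc2 (-0.25) fell. In 4 further lists 1 gene fell and 0 rose. They were Aarsd1 (-0.18) of 16 HSP90 co-chaperones and Bag5 (-0.31) of 9 genes listed with the BAG proteins and degradation links. The others were Hsf4 (-0.21) of 7 HSF family genes and regulators and Hspd1 (-0.16) of 10 mitochondrial chaperones and proteases. None of the 14 TRiC and prefoldin genes passed, the smallest p being that of Cct8 (-0.14, adjusted p = 0.0590). Of the 10 ER counterparts 5 fell under doxycycline alone with a median of -0.20, among them Hyou1 (-0.39), Sdf2l1 (-0.38), Dnajc3 (-0.32) and Hspa5 (-0.22).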

How the data were processed

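Biotin-labelled RNA of 18 B16 F10.9-4 cultures was read on 1-colour Affymetrix arrays, per the labels' protocols. The authors deposited log2 intensities of 35557 probe sets, summarised by RMA and handled with Partek, per the submitters' processing notes; versions, settings and a genome build are not given in the sources used here. RMA understates the change of dim probe sets. The values were used as deposited.

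Of the probe sets 21789 carried 1 symbol, 1621 several and 12147 none; 999 of the resulting 19938 genes had more than 1 probe set, and 0 symbols needed an update. Groups and replicate numbers came from the sample titles, and the replicate numbers were read as experiment numbers. limma 3.58.1 (R 4.3.3) was fitted to the means of 6 groups (12 residual and 5.99 prior degrees of freedom) with 9 comparisons, 2 interaction terms and Benjamini-Hochberg adjustment over all genes, threshold 0.05; the fit was tested on simulated data. Within groups r was 0.997 to 0.999.

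The series design describes 3 experiments that each held all 6 conditions, so arrays with the same replicate number were taken as 1 experiment. The titles do not state this. The median r of deviations from group means was 0.04 over 45 same-number pairs (-0.50 to 0.50, with 14 over 0.1). Over different-number pairs it was -0.01, so the arrays themselves show little of the pairing. P-values measure the spread between these experiments.

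Named genes were the members, up to 4 called genes with the largest change per list (or the smallest p where 0 passed), Cebpb, Ddit3 and Hspa5, and the 5 genes most like Hsph1, leaving out predicted, small RNA and receptor genes; a repeat for Hsf1 was not possible. The members, lists and motifs were chosen with earlier results of these data known. Alternatives were the experiment block, compared groups only, leaving out the dimmest 25% of genes, other scalings, a variance trend, weights per array, probe sets averaged per gene, and leaving out arrays or experiments.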

Additional observations from a re-analysis of the deposited data

Results flagged for a closer look

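Probe sets with several gene symbols were outside the comparisons and were tested apart over their own 1621. The probe set that reads Hspa1a and Hspa1b, the stress-inducible HSP70 genes, stood above its vehicle level with doxycycline alone, by 0.21 ± 0.053 (SE, limma adjusted p = 0.0459), and changed by -0.38 at 12 h of tunicamycin under doxycycline against doxycycline alone (adjusted p = 8.25e-05). Of 2 that read Hspa8 with the small nucleolar RNAs Snord14c and Snord14d, 1 stood above vehicle at 5 h of tunicamycin, by 0.33 ± 0.078 (SE, adjusted p = 0.0391), while the other was at 0.30 (adjusted p = 0.0773). The 3 probe sets of Hspa8 alone changed by -0.08 to -0.06 in that comparison. From 5 to 12 h of tunicamycin the 2 shared probe sets changed by -0.38 (adjusted p = 0.00361) and -0.35 (adjusted p = 0.0130). Doxycycline at 5 h of tunicamycin went with -0.32 (adjusted p = 0.0302) and -0.29 (adjusted p = 0.0692) in the same order. The share of the 1621 probe sets called was not counted. Hspa1a was also read with a single symbol, among the genes of the main comparisons. That reading did not pass under doxycycline alone, where Hspa2 and Hspa1l were the only genes of its list called. At 12 h of tunicamycin under doxycycline it changed by -0.18 against doxycycline alone (limma adjusted p = 0.0268).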

How the results depend on the processing

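No member change that passed in either of the fits compared changed sign; a change that passed in neither was taken to have no direction. With arrays or whole experiments left out 832 member changes kept their side of the threshold, 52 lost a call and 4 gained one, and under the other alternatives 773 kept it, 13 lost one and 6 gained one. The count for tunicamycin 5 h against vehicle was 2, and 1 with the replicate block, 0 with the compared groups alone, 1 with quantile normalization repeated and 3 with array medians set equal. For tunicamycin 12 h against 5 h it was 6, and 3 with the compared groups alone and 7 with quantile normalization repeated. For doxycycline with tunicamycin 5 h it was 1 against tunicamycin 5 h, and 2 with a variance trend and 3 with array weights; against doxycycline it was 0, and 1 with quantile normalization repeated. With arrays or experiments left out these 4 counts ran over 0 to 3, 1 to 6, 1 to 2 and 0 to 1, and the count for doxycycline with tunicamycin 12 h against 5 h, 6, over 3 to 6. Fits with arrays left out or of compared groups alone hold fewer arrays; the cause was otherwise not tested. Beside Hsph1 at 5 h, the block changed no member's call. Setting medians over all probe sets equal was added after the data were seen. No alternative gave an interaction call for a member.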
